A study of Saccharomyces cerevisiae with 6 samples.

Results

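The genes of the cytosolic small ribosomal subunit were followed in budding yeast carrying the mms21RINGD allele and in wild type (WT). They were taken as every feature of the expression table whose RefSeq name is RPS with a number and, where the gene is duplicated, the letter A or B. This gave 56 genes of 7126 features. The 56 genes encode 32 proteins. A pair of copies encodes each of 24 proteins, and 8 proteins have 1 gene. An intron is annotated in 36 genes and none in 20.

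The study set the mms21RINGD mutant, 3 libraries, against WT, 3 libraries, under a title that ties ribosome biogenesis to Mms21, a ligase for SUMO, a small protein that is attached to others as a mark. The labels give W303 as the strain of WT and the allele name itself as the strain of the mutant, so it is not stated which part of MMS21 the allele lacks or whether 1 clone was used. All cultures grew in YPD with added CSM, a rich medium with an amino acid mixture, to an optical density of 0.6. Total RNA was depleted of ribosomal RNA and sequenced, with 19264738 to 24034030 reads per library in the mutant and 20887808 to 24625301 in WT.

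The small subunit binds mRNA, scans for the start codon and pairs each codon with a tRNA. Its proteins fold around the 18S rRNA into a head, a body and a platform, and most are needed for cutting and exporting the precursor of that rRNA. In yeast the genes of both subunits are transcribed at very high rates in growing cells, mainly through Rap1, Fhl1 and Ifh1 at their promoters, and they are turned down together under stress. Many were kept as pairs after a whole-genome duplication, with proteins that are nearly identical.

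The comparison of copies rests on the letters in which they differ. The first 60 coding bases are shown for 5 pairs that have a copy on the right part of chromosome XII and whose log2 ratio of copies differed by at least 0.2 between the strains. They are from the RefSeq R64 reference, the same assembly as sacCer3 and not the genome of the W303 strain itself. Capitals mark the bases that differ between the copies.
RPS22A: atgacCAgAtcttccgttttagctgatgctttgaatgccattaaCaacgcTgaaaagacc
RPS22B: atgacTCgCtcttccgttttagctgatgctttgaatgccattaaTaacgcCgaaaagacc
RPS30A: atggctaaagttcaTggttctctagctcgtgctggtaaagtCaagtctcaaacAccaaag
RPS30B: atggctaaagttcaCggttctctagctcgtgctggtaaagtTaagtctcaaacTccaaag
RPS29A: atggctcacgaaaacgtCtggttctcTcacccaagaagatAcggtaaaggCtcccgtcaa
RPS29B: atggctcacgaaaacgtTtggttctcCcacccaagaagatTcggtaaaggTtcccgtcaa
RPS25A: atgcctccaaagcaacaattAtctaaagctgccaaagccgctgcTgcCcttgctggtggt
RPS25B: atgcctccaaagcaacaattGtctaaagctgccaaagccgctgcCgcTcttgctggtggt
RPS1A: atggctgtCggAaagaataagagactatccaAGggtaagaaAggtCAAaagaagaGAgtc
RPS1B: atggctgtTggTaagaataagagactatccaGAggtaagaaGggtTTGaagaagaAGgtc
In these stretches the RPS22 copies differ at 5 bases, the RPS30 copies at 3, the RPS29 copies at 4, the RPS25 copies at 3 and the RPS1 copies at 10. Over whole coding sequences the copies of the 24 pairs were 84.3% to 99.2% identical. The copies of RPS4, RPS6 and RPS24 were among those that shared more than 20% of their 50-base windows without a mismatch (46.8%, 72.1% and 38.2%). How long the reads were, and what was done with reads that match at several places, is not given in the sources used, which makes the split of reads within such pairs uncertain. In 9 pairs, RPS22, RPS25, RPS26 and RPS29 among them, no 50-base window was shared.

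The upstream windows of 3 genes are shown because Rap1 binds most promoters of this family. The letters of its site were searched as ACCCNNACA on both strands and are in capitals. All 3 windows are 60 bases on the coding strand of the gene, at chrVII:277203-277262 (+) for RPS2, chrIV:579202-579261 (+) for RPS13 and chrXII:1019120-1019179 (-) for RPS1A.
RPS2: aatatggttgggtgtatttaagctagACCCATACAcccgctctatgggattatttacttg
RPS13: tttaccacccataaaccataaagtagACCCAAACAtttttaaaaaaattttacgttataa
RPS1A: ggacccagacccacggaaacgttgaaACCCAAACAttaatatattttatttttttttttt
The match begins 388 bases before the coding start in RPS2, 230 in RPS13 and 245 in RPS1A. In windows of 250 bases before to 50 after the start, 4 of the 56 genes held a match, a share of 7.14%, against 2.83% of 6002 promoters of the genome. A window of 500 bases before the start, chosen after seeing the data, held a match in 18 of the 56 genes, or 32.1%, against 5.48%. The letters GACGC, which recur at promoters bound by Fhl1 and Ifh1, were in 32.1% of the RPS windows and 17.7% of all windows of the shorter kind, and in 48.2% and 30.4% of the longer. The letters of the Abf1 site, another factor of some of these promoters, were in 17.9% of the RPS windows and 14.4% of all windows of the shorter kind, and in 21.4% and 22.7% of the longer. In the shorter windows those of Reb1 (TTACCCG) were in 3.57% and 7.08%, those of the PAC element (GATGAG) in 12.5% and 20.4%, and those of the RRPE element (AAAAATTT) in 12.5% and 14.1%. In the longer windows they were in 3.57% and 10.1% for Reb1, 21.4% and 28.2% for PAC, and 21.4% and 20.5% for RRPE, all searched on both strands. The Reb1 and Rap1 letters can overlap. Outside the right part of chromosome XII the median log2 fold change was -0.53 in 17 genes with the Rap1 letters in the longer window and -0.54 in 32 genes without them.

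Transcripts of the small subunit were lower in the mutant almost throughout. The RPS genes together took 4.90%, 4.75% and 4.83% of all reads in mutant libraries 1 to 3, and 6.59%, 6.85% and 6.96% in WT libraries 1 to 3. Of the 56 genes, 53 fell, 1 rose (RPS22B) and 2 passed no threshold (RPS1A and RPS30A). A gene was called when the adjusted p of limma, a moderated linear model of log2(RPKM + 1) across 6731 features, was under 0.05. In that test 10.9% of all features fell and 42.7% rose. RPKM is the number of reads scaled to the length of the gene and the size of the library. Each log2 fold change is mutant minus WT of log2(RPKM + 1), where the added 1 makes changes of low genes look smaller, and each fold is a ratio of mean RPKM.

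The median log2 fold change of the 56 genes was -0.52, or a fold of 0.694, and single genes lay between folds of 0.617 and 1.18. All 6731 features had a median of 0.24, so the RPS median was -0.76 relative to it. The 76 RPL genes of the large subunit stood almost at the same place, with a median of -0.53, 71 falls and no rise. The 3 mutant libraries did not overlap the 3 WT libraries in 55 RPS genes, lower in 53 and higher in 2, while 14.3% of all features lay lower without overlap and 64.5% lay lower or higher. The values are shares of each library's RNA, so fewer molecules per cell and more of other RNAs cannot be told apart.

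Scaling sets where 0 lies for these changes. The median of all features was -0.00 once libraries were scaled by median of ratios, and -0.10 after quantile normalization. The RPS median was negative under both, -0.78 and -0.31, but the sign of 5 genes near 0 turned: RPS22B and RPS30A to lower with median-of-ratios scaling, and RPS1A, RPS25B and RPS29A to higher with quantile normalization. RPS1A was called lower by median of ratios (-0.37, limma adjusted p = 0.0196) and higher after quantile normalization (0.158, limma adjusted p = 0.0105). RPS30A was called higher after quantile normalization (0.33, limma adjusted p = 0.00112). It was called lower by median of ratios without WT library 1 (-0.23, limma adjusted p = 0.00494). Among all calls, 79.7% were rises as deposited, 48.4% by median of ratios and 37.0% after quantile normalization.

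Replicates were tight. The median coefficient of variation of an RPS gene was 2.14% in the mutant and 3.49% in WT. WT library 1 stood somewhat apart: it was the lowest WT library in 42 of the 56 genes and the highest in 5. Without it the count of falls was 54, since RPS1A passed the threshold then (log2 fold change -0.16, adjusted p = 0.00533 in limma). MMS21 itself had 16.6, 12.9 and 13.5 RPKM in mutant libraries and 3.23, 3.04 and 2.18 RPKM in WT libraries, a rise by limma (adjusted p = 0.000152). A level over the whole gene does not show which part of it was read.

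**Figure D1:**
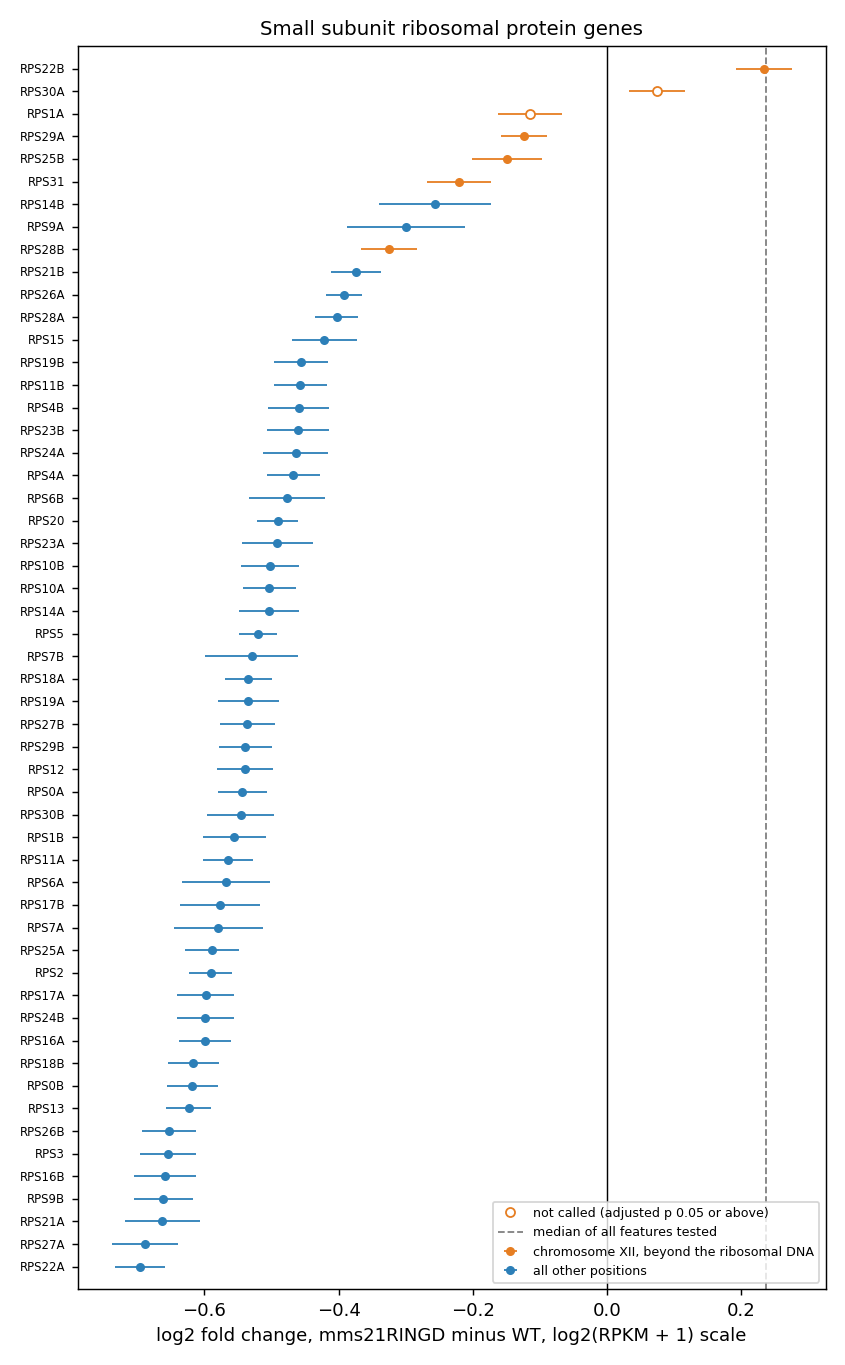
Log2 fold change, mms21RINGD minus WT on the log2(RPKM + 1) scale, for the RPS genes described here, ordered by value, with bars of 1 standard error from limma. Orange marks the 7 genes on chromosome XII beyond the ribosomal DNA, open symbols mark RPS1A and RPS30A, which passed no threshold, and the dashed line marks the median of all features tested (0.24). Most genes lie between -0.70 and -0.40, and 6 of the 8 highest are orange.

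The deepest falls were spread over the subunit. RPS22A, a protein of the central domain of the 18S rRNA, had 2936, 2758 and 2808 RPKM in mutant libraries and 4455, 4591 and 4728 RPKM in WT libraries. Every mutant library was far below every WT library, and log2 fold change was -0.70 ± 0.04 (SE; adjusted p = 5.43e-05, limma). RPS27A, a zinc-binding protein of the platform, had 289, 292 and 298 RPKM in mutant libraries and 454, 476 and 491 RPKM in WT libraries. RPS21A, next to the platform, had 714, 705 and 707 RPKM in mutant libraries and 1039, 1153 and 1181 RPKM in WT libraries. Neither gene's groups overlapped, with log2 fold changes of -0.69 ± 0.05 and -0.66 ± 0.06 (limma adjusted p = 0.00013 and 0.000246).

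At the mRNA entry, RPS3, which lines the channel and takes part in unwinding mRNA, was the gene that fell most. It had 2506, 2416 and 2525 RPKM in mutant libraries and 3700.4, 3996 and 4031 RPKM in WT libraries. The groups were well separated, with a fold of 0.635, or -0.65 ± 0.04 on the log2 scale (limma adjusted p = 9.36e-05). RPS2, beside it in the channel, was at a fold of 0.664, and RPS15, whose tail reaches the decoding site, at 0.746. RPS15 had 2568, 2685 and 2654 RPKM in mutant libraries and 3766, 3492 and 3343 RPKM in WT libraries, so here WT library 1 was the highest and not the lowest. After quantile normalization RPS15 was not called (log2 fold change -0.16, limma adjusted p = 0.113).

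In the body, RPS9B, a protein that affects the accuracy of decoding, had 1051, 1029 and 1041 RPKM in mutant libraries and 1566, 1658 and 1718 RPKM in WT libraries. In the head, RPS16B, whose tail touches the tRNA in the P site, had 893, 876 and 879 RPKM in mutant libraries and 1317, 1434 and 1436 RPKM in WT libraries. For both genes all mutant values were below all WT values and the log2 fold change was -0.66 (limma adjusted p = 0.000105 for RPS9B and 0.000124 for RPS16B). RPS26B, which contacts the mRNA just upstream of the start codon, had 1041, 1061 and 1096 RPKM in mutant libraries and 1619, 1706 and 1702 RPKM in WT libraries. RPS13, at a contact with the large subunit, had 1608, 1556 and 1525 RPKM in mutant libraries and 2401, 2435 and 2388 RPKM in WT libraries. Both fell without overlap, by 0.65 ± 0.04 and 0.62 ± 0.03 on the log2 scale (limma adjusted p = 8.46e-05 and 5.43e-05).

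Neither place in the subunit nor gene structure set groups of genes far apart. Leaving aside chromosome XII beyond the ribosomal DNA, every gene of each group fell, and the median log2 fold change was -0.54 in 17 genes of the platform, central domain and mRNA exit. It was -0.52 in 6 genes of the mRNA entry and decoding site, -0.47 in 12 of the body and -0.54 in 14 of the head. Genes with an intron (34) and without one (15) both had a median of -0.54, single genes (7) -0.54, A copies (21) -0.53 and B copies (21) -0.54. Across these 49 genes the level per exon length in WT and the log2 fold change had a Spearman correlation of -0.27, given as a description, since the WT libraries enter both measures and genes are not independent replicates.

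Of the 49 genes, those nearest to 0 were RPS9A and RPS14B, minor copies of different proteins, with few reads. Other minor copies with few reads, RPS27A and RPS7B, were at log2 fold changes of -0.69 and -0.53. RPS9A had 146, 144 and 146 RPKM in mutant libraries and 204, 169.6 and 165 RPKM in WT libraries. RPS14B, whose splicing in yeast is held back by its own protein, had 234, 244 and 237 RPKM in mutant libraries and 322, 276 and 260.2 RPKM in WT libraries. In both genes WT library 1 was well above the other two, and the groups did not overlap. The log2 fold changes were -0.30 ± 0.09 and -0.26 ± 0.08 (limma adjusted p = 0.0282 and 0.0397). RPS9A had the fewest reads of all members, 3070 to 5510 per library, which leaves a counting error of 2.65% to 3.55% (half-width of the exact 95% Poisson interval, for counting error only). Both calls were lost without WT library 2 or any 1 mutant library, with limma adjusted p of 0.0503 to 0.0869 for RPS9A and 0.0785 to 0.112 for RPS14B.

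The ribosomal DNA repeats were bounded here by their annotated RDN37 genes, at bases 451575 to 467569. The rRNA genes RDN5-2 and RDN5-6 lie past that end. The 7 RPS genes on chromosome XII beyond this bound were the clearest exception. RPS1A, RPS22B, RPS25B, RPS28B, RPS29A, RPS30A and RPS31 lie there, and 4 of them fell, 1 rose and 2 passed no threshold. Their median log2 fold change was -0.12, with a range of -0.33 to 0.23. All 49 other genes fell, with a median of -0.54 and a range of -0.70 to -0.26. RPS0B, on the same chromosome before the repeats, was at -0.62. The grouping by this region was made after values were seen, so the 0.41 between the medians carries no test.

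RPS22B, at chrXII:856442-857317 (+), had 871, 869 and 835 RPKM in mutant libraries and 729, 747 and 713 RPKM in WT libraries. All mutant libraries were above all WT libraries, and the log2 fold change was 0.23 ± 0.04 (limma adjusted p = 0.00446). RPS30A, a protein of the mRNA entry made as a fusion in many animals but alone in yeast, had 956, 943 and 992 RPKM in mutant libraries and 928, 888 and 930.2 RPKM in WT libraries. Its groups did not overlap, yet the log2 fold change of 0.07 ± 0.04 passed no threshold (limma adjusted p = 0.168). RPS1A, next to the mRNA exit, had 2218, 2149 and 2272 RPKM in mutant libraries and 2256, 2432 and 2505 RPKM in WT libraries. It was the only member whose groups overlapped, with a log2 difference of -0.11 ± 0.05 (limma adjusted p = 0.0821).

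The falls among the 7 were small. RPS29A, a zinc-binding protein of the head, had 1338, 1303 and 1301 RPKM in mutant libraries and 1414, 1457 and 1422 RPKM in WT libraries. RPS25B, a head protein that viral internal ribosome entry sites need, had 1418, 1359 and 1396 RPKM in mutant libraries and 1442, 1563 and 1629 RPKM in WT libraries. Neither gene's groups overlapped, at log2 fold changes of -0.12 ± 0.03 and -0.15 ± 0.05 (limma adjusted p = 0.0232 and 0.0493). RPS25B lost its call when any library except WT library 1 was left out (adjusted p of 0.0912 to 0.149 in limma), and RPS29A without mutant library 2 or 3 or WT library 2 or 3 (0.0546 to 0.0934). RPS31, translated as a fusion with ubiquitin, had 7292, 6827 and 7208 RPKM in mutant libraries and 7811, 8315 and 8749 RPKM in WT libraries. RPS28B, a protein of the mRNA exit that in yeast limits its own mRNA, had 1309, 1253 and 1219 RPKM in mutant libraries and 1538, 1614 and 1585 RPKM in WT libraries. Both were lower without overlap, with log2 fold changes of -0.22 ± 0.05 and -0.33 ± 0.04 (limma adjusted p = 0.00951 and 0.00131).

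Other genes of the same region lay higher too. Its 275 tested features outside the ribosomal protein lists had a median log2 fold change of 0.50, against 0.24 for the 5508 such features elsewhere. Of the 275, 216 rose (78.5%) and 7 fell (2.55%), while 43.8% rose and 9.60% fell elsewhere. The 5 RPL genes of the region had a median of -0.12, and the other 71 RPL genes -0.54. With ribosomal protein genes included, 209 features on chromosome XII before the repeats had a median of 0.21, and 287 beyond them 0.48.

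**Figure D2:**
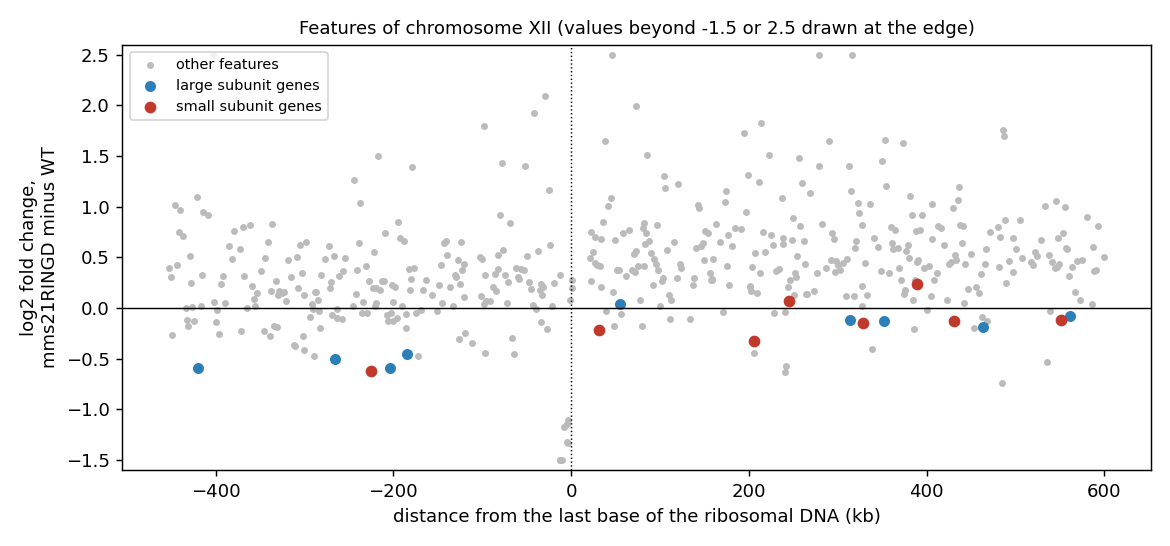
Log2 fold change, mms21RINGD minus WT, of features along chromosome XII by distance in kb from the last base of the ribosomal DNA repeats, with RPS genes in red, RPL genes in blue and other features in grey. Beyond the repeats (right of the dotted line) the 7 RPS genes lie at -0.33 to 0.23, and RPS0B, before them, at -0.62.

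Where one copy of a pair lies in this region and the other does not, the ratio of the copies within a library shows the shift free of scaling. In all 6 such pairs the balance lay further toward the copy on chromosome XII in the mutant, with non-overlapping libraries, by 0.08 to 0.93 on the log2 scale (median 0.44). In the other 18 pairs the median size of the change was 0.09 and the highest 0.36, and 10 had non-overlapping libraries. Over all 24 pairs, 16 had non-overlapping libraries, against 66.7% of 33 RPL pairs. A difference of at least 0.2 as well was found in 9 pairs, against 30.3% of RPL pairs. Each non-overlapping pair has p = 0.1 in an exact two-sided permutation test, the smallest that 3 against 3 libraries allow, so none of the 24 could pass 0.05.

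The log2 ratio of RPS22A to RPS22B was 1.75, 1.67 and 1.75 in mutant libraries and 2.61, 2.62 and 2.73 in WT libraries. For RPS30A to RPS30B it was 0.99, 0.95 and 1.05 in mutant libraries and 0.46, 0.34 and 0.32 in WT libraries. For RPS1A to RPS1B it was -0.09, -0.08 and -0.07 in mutant libraries and -0.53, -0.50 and -0.54 in WT libraries. In all 3 pairs the libraries of a strain lay close together and the strains far apart, by -0.93, 0.62 and 0.44. RPS1A thus made up 48.6% ± 0.2 of the pair per exon length in the mutant and 41.0% ± 0.3 in WT (SD, n = 3 each).

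RPS25A to RPS25B stood at 0.92, 0.89 and 0.89 in mutant libraries and 1.39, 1.31 and 1.32 in WT libraries. RPS29A to RPS29B stood at -0.81, -0.82 and -0.78 in mutant libraries and -1.18, -1.19 and -1.28 in WT libraries. The differences, -0.44 and 0.42, ran toward the chromosome XII copy in both pairs. RPS28A to RPS28B stood at 1.10, 1.10 and 1.15 in mutant libraries and 1.25, 1.16 and 1.16 in WT libraries. Here the strains were separated by less than 0.1, and RPS28A, on chromosome XV, was itself among the genes that fell least (-0.40). The copies off chromosome XII in the other pairs fell like most members, with log2 fold changes of -0.56 for RPS1B, -0.55 for RPS30B, -0.59 for RPS25A and -0.54 for RPS29B.

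**Figure D3:**
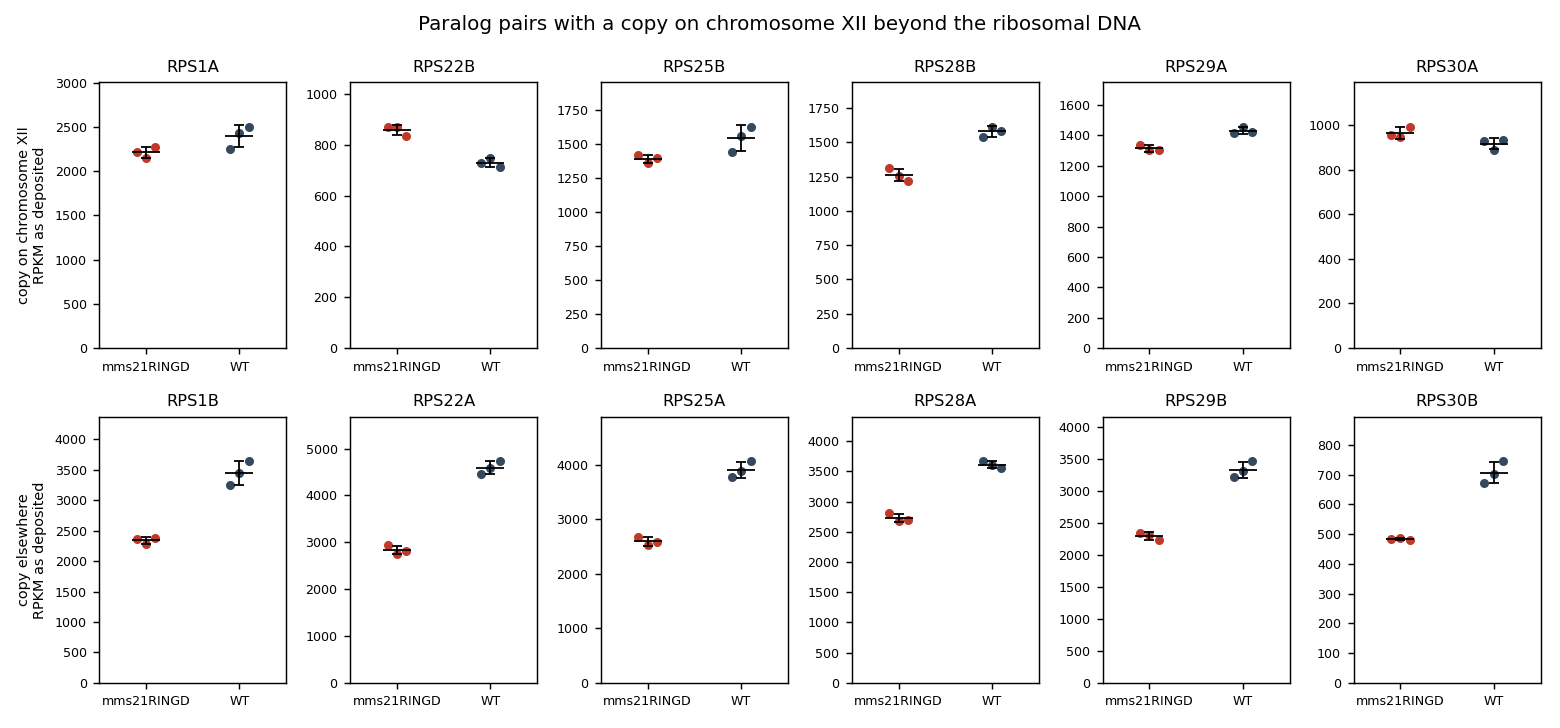
RPKM as deposited of both copies of the 6 pairs with a copy on chromosome XII beyond the ribosomal DNA, 1 point per library with the mean and SD of 3, mms21RINGD left of WT. The copies elsewhere (lower row) lie lower in the mutant, as for RPS22A at 2834 RPKM in the mutant and 4592 RPKM in WT. Those on chromosome XII (upper row) differ less, as for RPS1A at 2213 RPKM in the mutant and 2398 RPKM in WT. The contrast is small in RPS28, with folds of 0.756 for RPS28A and 0.798 for RPS28B.

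A further 4 pairs, with no copy in that region, had a log2 ratio that differed by at least 0.2 without overlap of the libraries. The share of RPS9A per exon length was 13.1% ± 0.1 of its pair in the mutant and 10.6% ± 1.6 in WT, a change of 0.36 in the log2 ratio. WT library 1 was at -2.94, near the mutant libraries at -2.85, -2.84 and -2.83, and the other two WT libraries were at -3.29 and -3.38. RPS14A made up 83.7% ± 0.3 of its pair in the mutant and 85.9% ± 1.1 in WT, with WT library 1 again nearest to the mutant. RPS21A made up 47.5% ± 0.5 in the mutant and 52.5% ± 1.7 in WT, and RPS26A 74.6% ± 0.2 in the mutant and 71.0% ± 0.5 in WT (SD, n = 3 each). In RPS21 the A copy fell by 0.66 and the B copy by 0.37, and in RPS26 the A copy fell by 0.39 and the B copy by 0.65 on the log2 scale. RPS26A was not called after quantile normalization (-0.09, limma adjusted p = 0.0509).

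**Figure D4:**
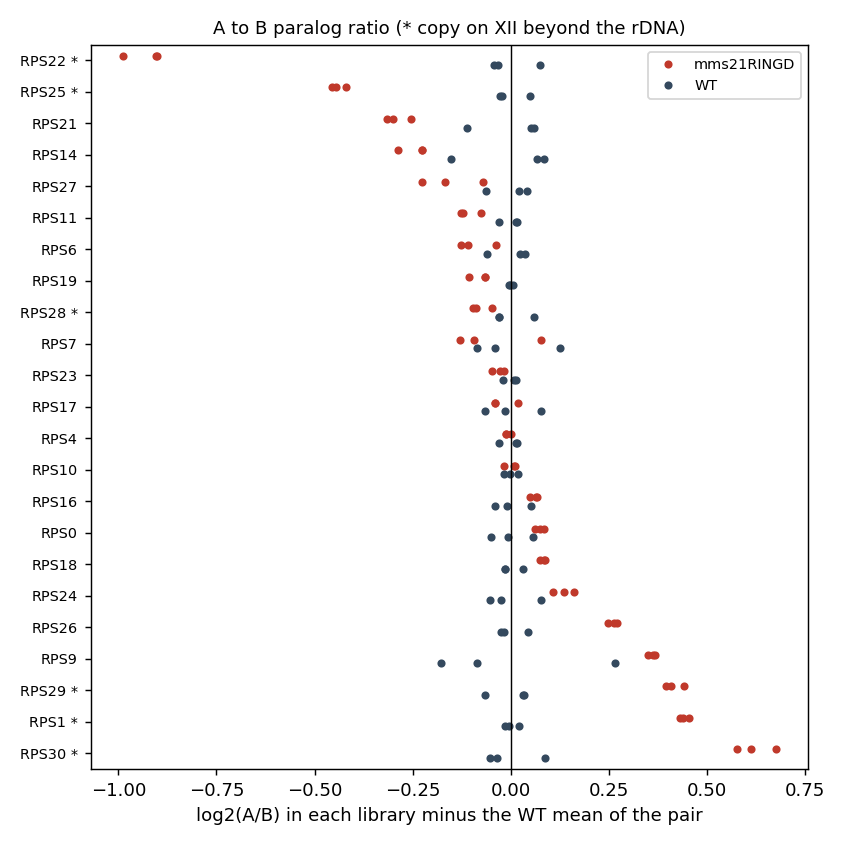
Log2 ratio of A to B copy in each library minus the WT mean of the pair, for the RPS pairs described here, with mms21RINGD in red above WT in dark blue. An asterisk marks the 6 pairs with a copy on chromosome XII beyond the ribosomal DNA; RPS22 reaches a mean of -0.93 in the mutant, and the pairs without an asterisk stay within 0.36 (RPS9).

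RPS22B needs a reservation. Its intron holds snR44, a small nucleolar RNA, at chrXII:856710-856920 (+). The sequence annotated for snR44 is shown because its reads lie within the span over which RPS22B was counted.
snR44: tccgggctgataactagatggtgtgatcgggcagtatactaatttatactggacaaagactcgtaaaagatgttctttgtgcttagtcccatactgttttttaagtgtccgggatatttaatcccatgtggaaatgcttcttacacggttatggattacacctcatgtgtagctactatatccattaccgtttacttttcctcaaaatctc
These 211 bases carried 9958, 12318 and 9659 reads in mutant libraries and 8742, 8052 and 7818 reads in WT libraries. RPS22B as a whole was listed with 14696, 18297 and 14722 reads in mutant libraries and 15720, 13662 and 13571 reads in WT libraries. If the authors counted snR44 reads in both features, which the sources used here do not say, snR44 made up 65.6% to 67.8% of the RPS22B reads in the mutant and 55.6% to 58.9% in WT. The remainder per exon length was then 626, 633 and 640 RPKM in mutant libraries and 721, 683 and 674 RPKM in WT libraries. That remainder was lower in the mutant, at a fold of 0.914 (exact permutation p = 0.1, the smallest possible), in place of the rise of the whole span. The ratio of RPS22A to that remainder was still 0.57 lower in the mutant on the log2 scale (2.16 ± 0.06 in the mutant, 2.73 ± 0.09 in WT, SD, n = 3 each), so the shift toward RPS22B was smaller but kept its direction.

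Summed over copies and per exon length, every one of the 32 proteins had lower transcript levels in the mutant, with no overlap of libraries. These sums are on the deposited scale and take all reads of a gene as exonic. The fold was 0.705 in the median and ranged from 0.635 for RPS3 to 0.895 for RPS30, whose chromosome XII copy was not called. The RPS22 sum had a fold of 0.764 as deposited and 0.656 with the snR44 reads taken off. RPS31 was the highest at 7109 ± 248 RPKM in the mutant and 8291 ± 469 RPKM in WT (SD, n = 3 each). The median protein was at 3362 RPKM in the mutant and 4926 RPKM in WT.

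The lowest sum was that of RPS6, a protein phosphorylated downstream of the TOR pathway, at 1211 ± 33 RPKM in the mutant and 1742 ± 109 RPKM in WT (SD, n = 3 each). RPS4 was also low, at 1874 RPKM in the mutant and 2586 RPKM in WT. The copies of both proteins share many 50-base windows, and the part that reads matching both copies have in these levels was not tested. The spread across the 32 proteins, as a coefficient of variation, was 34.0% in the mutant and 29.4% in WT. RPS30 moved most in rank, by 11 places, to the 3rd highest in the mutant.

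Within pairs the balance of copies was uneven in both strains. Per exon length the A copy was the higher in 15 pairs and the B copy in 9 in WT. RPS7A made up 87.2% of its pair in the mutant and 87.6% in WT, and RPS27A 19.6% in the mutant and 21.3% in WT. The order of the mean shares of the copies differed between the strains in 2 pairs, RPS6 and RPS21, both near parity. In RPS6 the A share was 48.3%, 49.9% and 48.6% in mutant libraries and 49.5%, 51.2% and 50.9% in WT libraries. These groups overlapped, and the RPS6 copies share many 50-base windows. Lowest of single genes were RPS9A at 267 RPKM per exon length in the mutant and 331 in WT, and RPS7B at 335 in the mutant and 484 in WT.

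**Figure D5:**
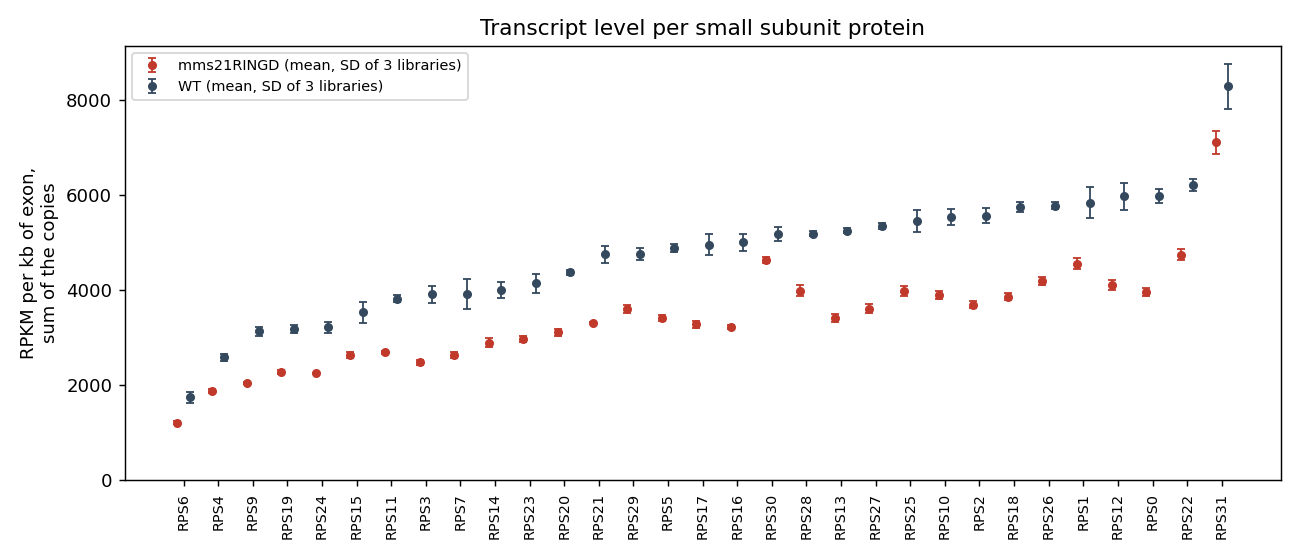
Transcript level of the small subunit proteins described here, summed over copies, in RPKM per kb of exon, as the mean and SD of 3 libraries, ordered by the WT level, with mms21RINGD in red and WT in dark blue. All proteins drawn lie lower in the mutant, and the RPS22 sum includes reads of snR44.

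Proteins that work with the small subunit gave a mixed picture. ASC1, which sits on the head as a signalling scaffold, had 2797, 2770.1 and 2729 RPKM in mutant libraries and 3980.3, 4586 and 4544 RPKM in WT libraries. It fell like the RPS genes, without overlap (log2 fold change -0.66 ± 0.06, limma adjusted p = 0.000281). STM1, which binds idle ribosomes, fell by 0.21 ± 0.04 (limma adjusted p = 0.00387), but was at 0.03 and not called with quantile normalization. Of 5 factors that escort small subunit proteins or the maturing subunit (YAR1, TSR2, LTV1, ENP1 and FAP7), none was called, with log2 fold changes of -0.32 to -0.03 and WT library 1 the lowest WT library in all 5. All 5 passed the threshold as lower with WT library 1 left out, which could only move genes lower where that library was the lowest. YAR1, ENP1 and FAP7 also passed as lower with median-of-ratios scaling. The share of all features called lower in these settings is not given here. Over all features, 10.9% fell and 42.7% rose as deposited. Rises made up 79.0% of all calls with WT library 1 left out and 48.4% with median-of-ratios scaling, which moves all genes down. TSR2 lies on chromosome XII beyond the ribosomal DNA.

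Among 12 regulators of these promoters, 5 rose, 1 fell and 6 were not called, shares close to the 42.7% and 10.9% of all features that rose and fell. IFH1, the activator that Fhl1 brings to the promoters, had 29.5, 30.6 and 32.5 RPKM in mutant libraries and 20.6, 18.3 and 19.0 RPKM in WT libraries. CRF1, a corepressor that competes with Ifh1, averaged 15.8 ± 0.4 RPKM in mutant libraries and 7.09 ± 0.95 RPKM in WT libraries (SD, n = 3 each). Both rose without overlap, by log2 fold changes of 0.65 ± 0.07 and 1.06 ± 0.10 (limma adjusted p = 0.000733 and 0.000421), and under each scaling. IFH1 and SFP1 themselves lie on chromosome XII beyond the ribosomal DNA. The 275 features there outside the ribosomal protein lists had a median of 0.50, so the rise of IFH1 is near that of its region. HMO1, a protein found on ribosomal DNA and on these promoters, had 107, 104 and 106 RPKM in mutant libraries and 157, 153 and 152 RPKM in WT libraries. It was lower in the mutant in every library (log2 fold change -0.54 ± 0.05, limma adjusted p = 0.000349). The repressors DOT6 (0.39) and STB3 (0.62) and the kinase SCH9 (0.27) rose as deposited, but DOT6 and SCH9 lost the call with median-of-ratios scaling and all 3 with quantile normalization. RAP1, at 29.0, 27.8 and 28.4 RPKM in mutant libraries and 34.9, 33.1 and 30.2 RPKM in WT libraries, was not called (limma adjusted p = 0.0553), and FHL1, SFP1, ABF1, REB1 and TOD6 were not called either. RAP1, FHL1 and REB1 passed as lower with median-of-ratios scaling. Without WT library 1, RAP1 and TOD6 passed as lower and SFP1 and ABF1 as higher.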

How the data were processed

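The authors deposited 1 table of RPKM values for 6 libraries. Per the submitters' processing notes they used sacCer3 with TopHat2 2.0.8, edgeR 3.8.6 and CASAVA 1.8.2, roles not named. Which counter, annotation and strandedness were used is not given in the sources used here, and antisense reads cannot be told apart. Columns were mapped by their titles. RefSeq R64 gave names and spans to 6048 features by systematic name and 114 by symbol. RPKM times gene span was a whole multiple of 1 step, within 0.02 of a read, for 99.8% of values above 0, which gave reads and depth, and 281 of 283 features with introns needed the full span. limma 3.58.1 (R 4.3.3) fitted log2(RPKM + 1) of features averaging 1 RPKM or more, with a trend, two-sided and Benjamini-Hochberg adjusted over 6731 features. The fit was tested on simulated data. The labels do not give separate cultures, so p-values measure the spread between libraries. Ratios of copies used RPKM without a pseudocount. Named in full were the 8 lowest and 8 highest members, those not called and pairs with a ratio change of at least 0.2. Members and lists were chosen with earlier results of these data known. Alternatives were other pseudocounts, filters, scalings and variance models, a replicate block and leaving out each library. One item is counted among the members but not reported here by name or in the figures.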

Additional observations from a re-analysis of the deposited data

How the results depend on the processing

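The count of RPS falls (53 by limma) lay between 49 and 55 under all alternatives. Outside chromosome XII beyond the ribosomal DNA it was 49 of 49 genes. The single rise became 0 with median-of-ratios scaling, 0 with that scaling without WT library 1, and 3 with quantile normalization. RPS22B, the gene that rose, lies in the region left out, so the absence of a rise outside it was fixed in advance. The median log2 fold change (-0.52) was -0.78 with median-of-ratios scaling, -0.85 with it and without WT library 1, -0.31 after quantile normalization and -0.48 with totals free of structural and mitochondrial RNAs. Relative to all features (-0.76) it was -0.71 with a pseudocount of 5 RPKM, -0.70 with a filter at 10 RPKM, -0.85 with median-of-ratios scaling without WT library 1, -0.21 after quantile normalization and -0.83 to -0.71 when libraries were left out in turn. After quantile normalization signs turned for RPS1A (0.158), RPS25B (0.035) and RPS29A (0.079), and RPS15 and RPS26A lost their calls. They turned for RPS22B (-0.021 by median of ratios, -0.080 without WT library 1 as well, -0.13 per exon with snR44 reads taken off) and for RPS30A (-0.18, and -0.23 without WT library 1). The cause was not tested. The count of pairs with a ratio difference of at least 0.2 without overlap was 9 under each alternative run on pairs. The limit of 20% on shared windows could not change that count, since all 9 pairs lie under it (RPS30 highest, 17.5%). A scale factor per library could not change it either, as it cancels in the ratio. Replicate numbers did not pair the samples (correlations of same-numbered deviations -0.14, 0.05 and -0.10). With the replicate number as a block 50 genes fell and 1 rose, and RPS14B, RPS25B and RPS29A lost their calls (limma adjusted p = 0.0679, 0.0953 and 0.0873). With voom on recovered reads 51 genes fell and 1 rose. Chosen after seeing the data were median-of-ratios scaling without WT library 1, the restriction by region, the limit on shared windows, the 500-base promoter window and the subtraction of snR44. RPS9A, RPS14B, RPS25B and RPS29A lost their calls when some single libraries were left out. With totals free of structural and mitochondrial RNAs, RPS25B and RPS29A lost theirs (limma adjusted p = 0.17 and 0.104). Both also lost them in limma without a trend (0.105 and 0.0918) and with voom (0.0552 and 0.0541). RPS25B lost its call with no filter and with a filter at 10 RPKM (limma adjusted p = 0.0589 and 0.0503). RPS14B lost its call with no filter and without a trend (limma adjusted p = 0.0505 and 0.0541).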
